A study of Mus musculus with 19 samples.

Results

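The genes described here are 45 genes of WNT signalling at the cell surface, read from the raw gene counts of 19 implanted 4T1 tumours by their gene symbols. They comprise 14 WNT ligands, 11 Frizzled and LRP receptors, 7 R-spondins and LGR receptors, 2 receptor-clearing ligases, 7 secreted inhibitors, and 4 feedback and target genes. All 45 had at least 1 count, and 38 passed the low-count filter, out of 46983 genes in the table and 16763 genes that passed. 4T1 is a mouse mammary carcinoma line, and implants of 1000000 cells were grown in BALB/cAnN mice. Antibody was given from day 3 in 3 doses, 3 days apart. The groups were 4T1-KD tumours (LDHA-KD, knocked down for lactate dehydrogenase A) given anti-CTLA-4 (n = 5), the same line given IgG (n = 5), anti-CTLA-4-treated 4T1-Sc control tumours (the anti-CTLA-4 controls, n = 5) and IgG-treated 4T1-Sc control tumours (the IgG controls, n = 4, replicates 1, 3, 4 and 5). Anti-CTLA-4 blocks a receptor that restrains T cells, and IgG is the control antibody. The labels name 1 line for each kind of tumour, do not say how the knockdown was made, and give no age. An effect of the knockdown and any other difference between the lines cannot be told apart. No label ties a replicate to a separate animal, so the p-values speak only to the spread among these libraries, which may be technical.

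WNT proteins are secreted lipid-modified ligands that bind Frizzled receptors. With the co-receptors LRP5 and LRP6 they stabilise beta-catenin, which works with TCF/LEF factors at target genes, and other WNTs act through alternative receptors on cell polarity. R-spondins bind LGR receptors and keep the ligases ZNRF3 and RNF43 from removing Frizzled receptors, and several targets of the pathway (AXIN2, NKD1, NOTUM, RNF43) feed back to restrain it. In the mammary gland the pathway is known for its part in ductal development and in stem cells.

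Of the genes that changed most, Tnfrsf19, Wnt11, Wnt10b and Wnt7a are shown with a promoter window each, because each differed strongly between the tumour lines and a TCF/LEF element is where beta-catenin acts. A match in these letters is a description, not a bound site. Each window runs from 250 bases before to 50 bases after a start site that RefSeq lists on GRCm38.p6, 5′ to 3′ on the gene's strand, and capitals mark CTTTGAT or, on the other strand, ATCAAAG. Windows were given for 28 of the 45 members, 36 windows in all. The motif was in 3 of the 36 (8.33%), against 3.73% of all 32851 windows, in windows of Tnfrsf19, Wnt11 and Wnt5b. A share that rests on 3 windows is no sign of an excess, and it was not tested. Of these genes, Tnfrsf19 was higher and Wnt11 lower in LDHA-KD tumours. The windows of Axin2, Lef1, Nkd1 and Rnf43 do not hold it, and no window was given for Rspo3, Wnt5a, Wnt10a or Sfrp1. The reference is C57BL/6J, not BALB/c. Tnfrsf19 (chr14:61037938-61038237, minus strand) and Wnt11 (chr7:98834862-98835161, plus strand) hold it once each, starting 202 and 51 bases before the start site. RefSeq lists a further start site for each of these genes, whose window (chr14:61046806-61047105 for Tnfrsf19 and chr7:98838595-98838894 for Wnt11) does not hold it. The Tnfrsf19 start site shown lies inside the gene as GENCODE M21 draws it. Wnt10b (chr15:98778101-98778400, minus strand) and Wnt7a (chr6:91411304-91411603, minus strand) do not hold these letters in these windows.
Tnfrsf19: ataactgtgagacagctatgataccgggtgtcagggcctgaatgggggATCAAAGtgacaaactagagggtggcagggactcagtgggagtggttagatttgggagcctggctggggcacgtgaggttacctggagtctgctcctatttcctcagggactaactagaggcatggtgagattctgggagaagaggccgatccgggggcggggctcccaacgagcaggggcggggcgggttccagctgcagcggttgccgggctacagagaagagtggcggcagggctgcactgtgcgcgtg
Wnt11: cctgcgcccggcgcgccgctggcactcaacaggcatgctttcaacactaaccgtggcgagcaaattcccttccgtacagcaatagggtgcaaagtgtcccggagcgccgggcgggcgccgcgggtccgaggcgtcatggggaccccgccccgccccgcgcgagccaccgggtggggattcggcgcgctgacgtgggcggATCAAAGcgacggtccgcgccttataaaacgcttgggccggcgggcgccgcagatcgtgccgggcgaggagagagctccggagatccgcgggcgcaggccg
Wnt10b: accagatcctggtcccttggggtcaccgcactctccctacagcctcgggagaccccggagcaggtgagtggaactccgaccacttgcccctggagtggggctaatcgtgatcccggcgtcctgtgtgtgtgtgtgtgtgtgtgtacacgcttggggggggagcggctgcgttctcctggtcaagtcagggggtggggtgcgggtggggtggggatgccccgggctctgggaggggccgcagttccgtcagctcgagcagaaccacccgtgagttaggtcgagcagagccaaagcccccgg
Wnt7a: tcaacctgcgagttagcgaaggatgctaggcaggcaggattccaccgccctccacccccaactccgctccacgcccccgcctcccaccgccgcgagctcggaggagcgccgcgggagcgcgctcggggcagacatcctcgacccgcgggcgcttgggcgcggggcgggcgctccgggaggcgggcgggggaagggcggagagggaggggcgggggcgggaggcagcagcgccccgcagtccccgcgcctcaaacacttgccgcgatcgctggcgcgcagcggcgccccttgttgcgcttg

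Values are counts per 1000000 gene counts (CPM) with TMM-scaled library totals. The 19 libraries held between 31783272 and 43266699 gene counts, and 3 counts correspond to between 0.0693 and 0.0944 CPM before scaling. Ldha checked the labels. It ran from 485 to 584 CPM in LDHA-KD tumours with anti-CTLA-4 and from 452 to 519 CPM in LDHA-KD tumours with IgG, against 1523 to 2243 CPM in the anti-CTLA-4 controls and 1282 to 1925 CPM in the IgG controls. The 10 epithelial tumour cell markers all passed the filter and summed to between 2178 and 4947 CPM over the 19 samples. On the second principal component, which held 17.0% of the variance, 4 libraries lay apart: replicates 3 and 5 of LDHA-KD tumours with anti-CTLA-4 and replicates 3 and 5 of the anti-CTLA-4 controls. Because these are bulk tumours, fewer cells of a type and less RNA per cell cannot be told apart.

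Levels between genes are compared here as CPM per kilobase of exon, with the union of exons in GENCODE M21 as the length. Wnt7b, a ligand of the beta-catenin branch, was the most abundant member in every group. It had 37.3 ± 3.94 CPM per kb (SD, n = 5) in LDHA-KD tumours with anti-CTLA-4 and 41.4 ± 4.37 (SD, n = 5) in those with IgG, against 40.6 ± 3.59 (SD, n = 5) in the anti-CTLA-4 controls and 43.9 ± 4.22 (SD, n = 4) in the IgG controls. The ranges of the groups overlapped. Fzd6, a Frizzled receptor tied to cell polarity, ranked 2 in each group, between 19.7 and 25.3 CPM per kb. Sfrp1, a secreted inhibitor that binds WNTs, ranked 3 in LDHA-KD tumours with anti-CTLA-4 at 16.7 ± 4.02 CPM per kb, next to Lrp5 at 16.0 ± 1.13, which is within their spread. Lrp5, the co-receptor, ranked 3 in the other groups, between 14.7 and 15.8 CPM per kb.

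**Figure D1:**
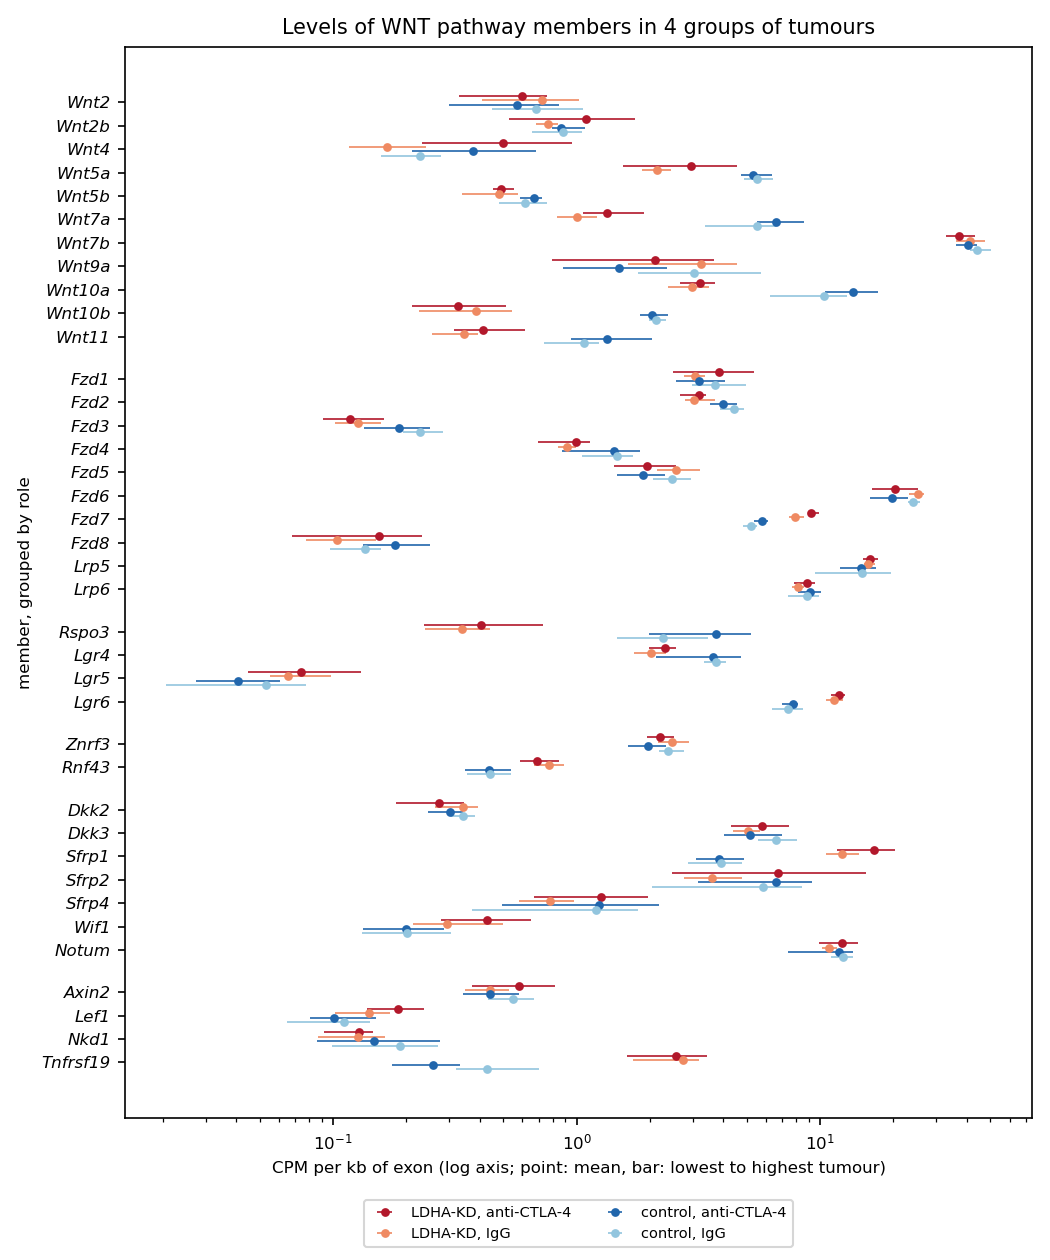
Levels of the 38 members that passed the filter, as CPM per kilobase of exon on a log axis. Points are group means, bars run from the lowest to the highest tumour, and colours are the 4 groups. Wnt7b lies highest in all groups, between 37.3 and 43.9 on average, while Wnt7a, Wnt10a, Wnt10b, Wnt11 and Rspo3 lie lower and Tnfrsf19 and Sfrp1 lie higher in both groups of LDHA-KD tumours.

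Summed over all 14 ligands, levels were lower in the LDHA-KD tumours. The sum was 53.7 ± 5.97 CPM per kb (SD, n = 5) in LDHA-KD tumours with IgG and 74.1 ± 6.35 (n = 4) in the IgG controls. Under anti-CTLA-4 the sum was 50.4 ± 2.53 (n = 5) in LDHA-KD tumours, against 73.5 ± 4.90 (n = 5) in controls. The highest LDHA-KD tumour had 61.2 CPM per kb and the lowest control tumour 65.7, so the sums did not overlap. Wnt7b made up 77.1% of the sum in LDHA-KD tumours with IgG and 59.3% in the IgG controls, and Wnt10a, the next ligand in control tumours, 5.55% in LDHA-KD tumours with IgG and 14.0% in the IgG controls. The 9 Frizzled receptors did not separate in this way, at 43.1 ± 1.87 CPM per kb in LDHA-KD tumours with IgG and 41.8 ± 2.78 in the IgG controls. These sums are a description and were not tested.

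Setting LDHA-KD against control tumours asks what differs between the tumour lines, by the knockdown or otherwise. Under IgG, 5 of the 38 members tested were higher and 10 lower with edgeR's quasi-likelihood test (39.5% of the members), where 16.8% of all 16763 genes were higher and 17.5% lower (34.3% in all). Under anti-CTLA-4, 7 members were higher and 11 lower (47.4%), where 20.2% of all genes were higher and 19.8% lower (40.0% in all). The shares of members called were thus near those of all genes. The median log2 fold change of the members was -0.23 under IgG and 0.04 under anti-CTLA-4, against 0.00 and 0.01 for all genes tested. All 15 members called under IgG were also called under anti-CTLA-4 in the same direction, and in each of them no LDHA-KD sample with IgG overlapped a control sample with IgG. Over all genes tested, 30.4% did not overlap under IgG, and 78.8% of those called. Under anti-CTLA-4 the samples of 13 of the 18 called members did not overlap, against 23.2% of all genes tested and 56.9% of those called. The comparisons use different samples but share the estimate of spread.

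**Figure D2:**
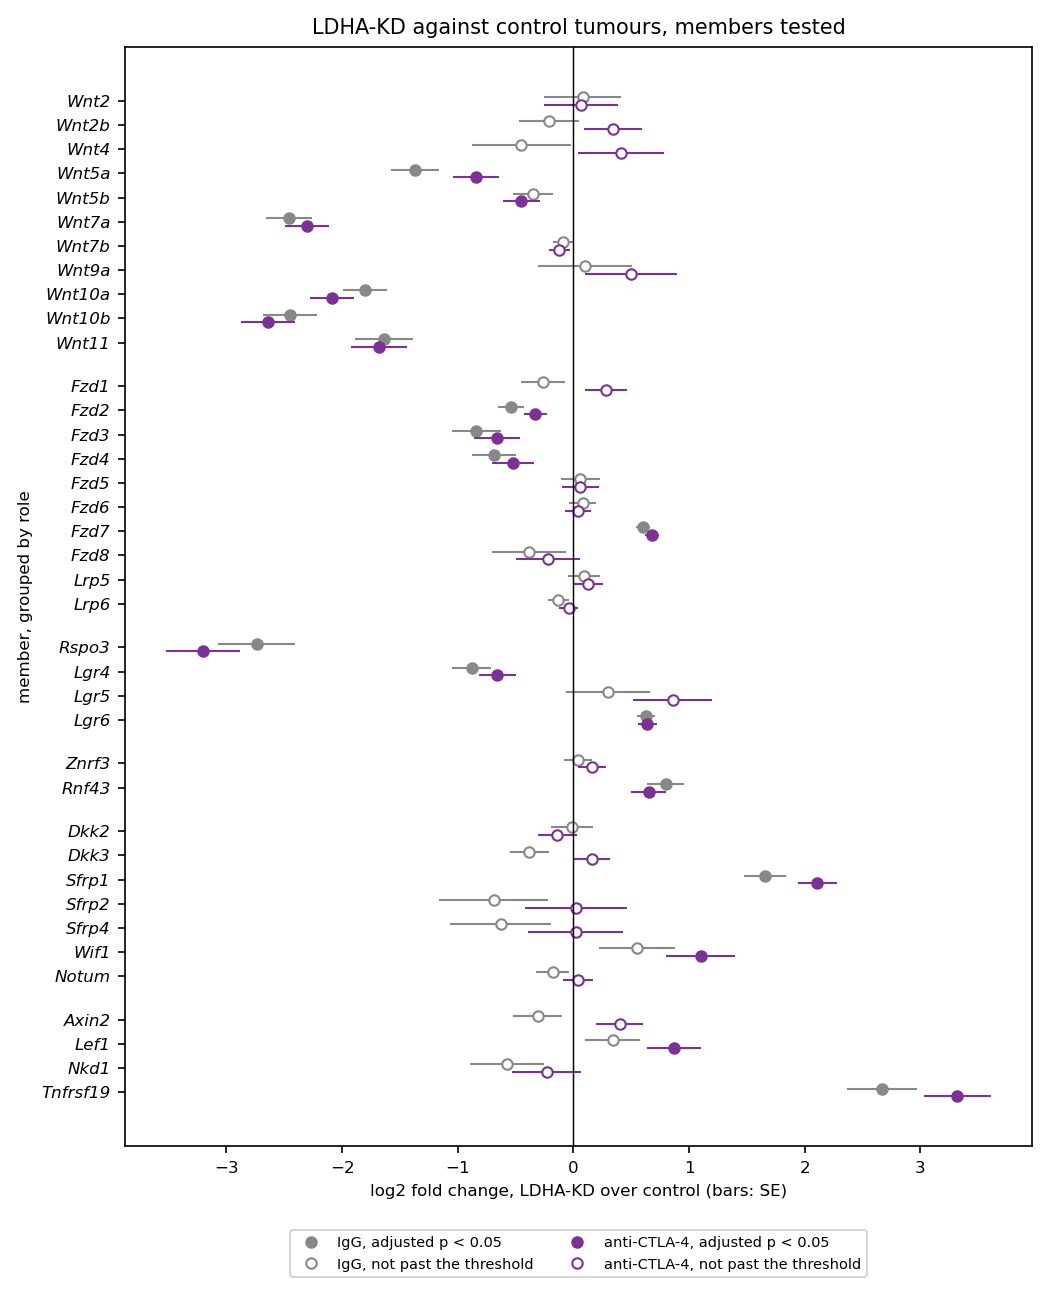
Log2 fold changes of LDHA-KD over control tumours for the 38 members tested, grouped by role. Grey is the comparison under IgG and purple under anti-CTLA-4, bars are the SE, and filled points passed an adjusted p of 0.05. Rspo3, Wnt7a and Wnt10b lie below -2 in both comparisons, and Tnfrsf19 lies highest, at 2.67 and 3.32.

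Of the 11 ligands tested, 5 were lower in both comparisons, Wnt7a, Wnt10b, Wnt10a, Wnt11 and Wnt5a. No ligand was called higher in either comparison. The share called was 45.5% under IgG and, with Wnt5b, 54.5% under anti-CTLA-4. Over all genes tested, 17.5% were lower and 16.8% higher under IgG, and 19.8% lower and 20.2% higher under anti-CTLA-4. The ligands were not tested as a set. Wnt7a (chromosome 6, 91363981 to 91411363), a ligand of epithelial and neural tissues, had 2.97, 2.64, 3.48, 3.83 and 2.94 CPM in LDHA-KD tumours with IgG, against 17.8, 21.0, 20.3 and 10.7 CPM in the IgG controls. Under anti-CTLA-4, Wnt7a had 3.35, 4.40, 4.08, 3.45 and 5.99 CPM in LDHA-KD tumours, against 27.2, 18.0, 22.0, 20.2 and 17.4 CPM in control tumours. Every LDHA-KD sample lay below every control sample, with control IgG replicate 5 the lowest of the controls. For Wnt7a the log2 fold change was -2.46 (SE 0.20, adjusted p = 4.09e-08) in the IgG comparison and -2.30 (SE 0.19, adjusted p = 4.34e-08) in the anti-CTLA-4 comparison.

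Wnt10b (chromosome 15, 98770712 to 98778150), a ligand with known roles in mammary development and against fat cell formation, had 1.74, 1.85, 0.764, 1.05 and 1.17 CPM in LDHA-KD tumours with IgG, against 7.06, 6.73, 7.90 and 7.15 CPM in the IgG controls. Under anti-CTLA-4, Wnt10b had 0.790, 1.16, 1.75, 1.13 and 0.719 CPM in LDHA-KD tumours, against 7.29, 8.07, 6.20, 6.92 and 6.18 CPM in control tumours. The control samples lay close together and far above all LDHA-KD samples. For Wnt10b the log2 fold change was -2.45 (SE 0.23, adjusted p = 2.88e-07) in the IgG comparison and -2.64 (SE 0.23, adjusted p = 6.94e-08) in the anti-CTLA-4 comparison. Its relative Wnt10a (chromosome 1, 74791516 to 74804179), a ligand of hair and tooth development, had 8.36, 7.74, 5.84, 8.64 and 6.28 CPM in LDHA-KD tumours with IgG, against 31.8, 26.3, 29.4 and 15.4 CPM in the IgG controls. Under anti-CTLA-4, Wnt10a had 6.90, 7.75, 9.19, 6.59 and 9.08 CPM in LDHA-KD tumours, against 40.9, 25.9, 42.6, 27.9 and 31.2 CPM in control tumours. Control IgG replicate 5 was again the lowest control, and no group of LDHA-KD tumours overlapped its controls. For Wnt10a the log2 fold change was -1.80 (SE 0.19, adjusted p = 1.21e-06) in the IgG comparison and -2.09 (SE 0.19, adjusted p = 1.05e-07) in the anti-CTLA-4 comparison.

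Wnt11 and Wnt5a are the ligands best known for signalling without beta-catenin. Wnt11 (chromosome 7, 98835112 to 98855195) had 1.63, 1.05, 1.38, 1.51 and 1.58 CPM in LDHA-KD tumours with IgG, against 4.95, 4.67, 5.11 and 3.05 CPM in the IgG controls. Under anti-CTLA-4, Wnt11 had 1.30, 1.54, 1.73, 1.47 and 2.55 CPM in LDHA-KD tumours, against 8.43, 3.91, 6.85, 4.13 and 4.25 CPM in control tumours. The groups did not overlap, and anti-CTLA-4 control replicates 1 and 3 were the highest. For Wnt11 the log2 fold change was -1.64 (SE 0.25, adjusted p = 5.56e-05) in the IgG comparison and -1.68 (SE 0.24, adjusted p = 2.04e-05) in the anti-CTLA-4 comparison.

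Wnt5a (chromosome 14, 28504750 to 28527448) had 14.5, 19.2, 17.2, 18.0 and 14.5 CPM in LDHA-KD tumours with IgG, against 42.0, 38.0, 50.0 and 42.3 CPM in the IgG controls. Under anti-CTLA-4, Wnt5a had 12.1, 16.5, 35.7, 21.3 and 29.6 CPM in LDHA-KD tumours, against 38.8, 41.1, 49.8, 39.9 and 37.1 CPM in control tumours. Replicates 3 and 5 of the LDHA-KD tumours with anti-CTLA-4, both among the libraries that lay apart, came close to the controls without reaching them. For Wnt5a the log2 fold change was -1.37 (SE 0.21, adjusted p = 6.90e-05) in the IgG comparison and -0.84 (SE 0.20, adjusted p = 0.00259) in the anti-CTLA-4 comparison, and -1.26 under anti-CTLA-4 without the 4 libraries that lay apart. The difference between these effects, the interaction, was 0.53 (SE 0.29, adjusted p = 1.0 with edgeR's quasi-likelihood test).

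Of the other ligands tested, Wnt5b, a close relative of Wnt5a, averaged 1.29 CPM in LDHA-KD tumours with anti-CTLA-4 and 1.77 CPM in the anti-CTLA-4 controls. It was lower at -0.45 (SE 0.16, adjusted p = 0.0270), and not called under IgG at -0.35 (SE 0.17, adjusted p = 0.110). That call was lost without anti-CTLA-4-treated LDHA-KD replicate 5 (adjusted p = 0.0561), or without anti-CTLA-4 control replicate 3 (0.0570), 4 (0.0552) or 5 (0.0511), and it had an adjusted p = 0.213 without the 4 libraries that lay apart. The log2 fold change then stayed between -0.44 and -0.39. With edgeR the call was also lost on raw library totals (-0.36, adjusted p = 0.0897) and with no low-count filter (-0.44, adjusted p = 0.0822). Wnt2, Wnt2b, Wnt4, Wnt7b and Wnt9a were not called in either comparison. Among them Wnt7b had -0.09 (SE 0.09) under IgG and -0.12 (SE 0.09) under anti-CTLA-4, while Wnt4, a ligand of ductal branching in the mammary gland, had -0.45 (SE 0.43) and 0.41 (SE 0.37). Wnt2 had 0.08 under IgG and 0.07 under anti-CTLA-4, Wnt2b -0.21 and 0.34, and Wnt9a 0.10 and 0.50.

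**Figure D3:**
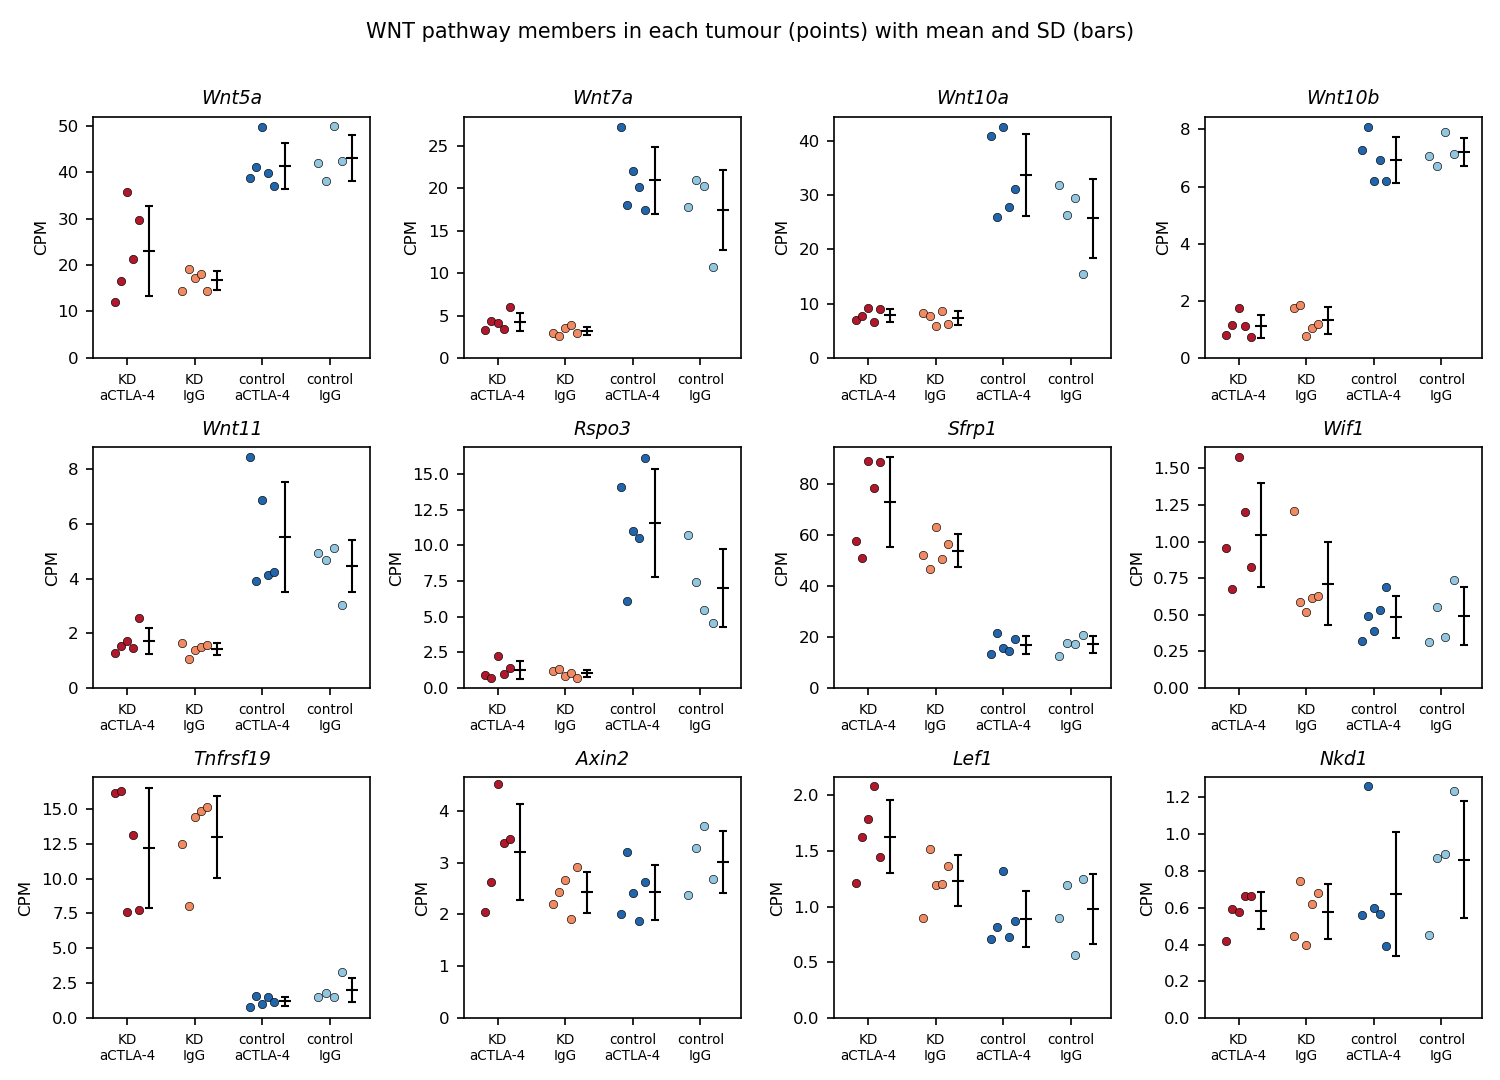
CPM in each tumour for 12 members, with the mean and SD of each group as bars and every axis starting at 0. Wnt5a, Wnt7a, Wnt10a, Wnt10b, Wnt11 and Rspo3 are lower and Sfrp1 and Tnfrsf19 higher in every LDHA-KD tumour than in every control tumour given the same antibody, while Axin2 and Nkd1 overlap.

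The receptors that were called differed in both directions, by at most 0.84 on the log2 scale. Fzd7, a Frizzled receptor of the beta-catenin branch, was higher in LDHA-KD tumours, at 35.8 CPM with IgG against 23.6 CPM in the IgG controls, and at 41.8 CPM with anti-CTLA-4 against 26.1 CPM in the anti-CTLA-4 controls. Fzd7 differed by 0.60 on the log2 scale (SE 0.06, adjusted p = 1.07e-06) in the IgG comparison and 0.68 (SE 0.06, adjusted p = 8.34e-08) in the anti-CTLA-4 comparison, with no overlap between groups. Fzd2, Fzd3 and Fzd4 were lower, Fzd2 at -0.54 (SE 0.11) under IgG and -0.33 (SE 0.10) under anti-CTLA-4 and Fzd3 at -0.84 (SE 0.21) and -0.66 (SE 0.20). Fzd4, the receptor of Norrin in vessels as well as of WNTs, had -0.69 (SE 0.19, adjusted p = 0.00827) under IgG. Under anti-CTLA-4 it had -0.52 (SE 0.18, adjusted p = 0.0266), a call that was lost without anti-CTLA-4-treated LDHA-KD replicate 1 (adjusted p = 0.0651), without anti-CTLA-4 control replicate 2 (0.0771), 4 (0.0647) or 5 (0.0744), and without the 4 libraries that lay apart (0.0609). The log2 fold change was then -0.41, -0.42, -0.48, -0.45 and -0.63, in the same order. With edgeR the Fzd4 call was also lost on raw library totals (-0.42, adjusted p = 0.0877) and with only the groups compared (-0.52, adjusted p = 0.0637). Fzd1, Fzd5, Fzd6, Fzd8, Lrp5 and Lrp6 were not called. Fzd1 had -0.26 under IgG and 0.28 under anti-CTLA-4, Fzd5 0.06 and 0.06, Fzd6 0.08 and 0.04, and Fzd8 -0.38 and -0.22. Lrp6 had -0.13 (SE 0.09) and -0.04 (SE 0.08), and Lrp5 0.09 (SE 0.14) and 0.13 (SE 0.13), under IgG and under anti-CTLA-4 in turn.

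Among R-spondins, only Rspo3 passed the filter. Rspo3 (chromosome 10, 29452416 to 29535867) had 1.21, 1.36, 0.856, 1.08 and 0.735 CPM in LDHA-KD tumours with IgG, against 10.7, 7.42, 5.44 and 4.53 CPM in the IgG controls. Under anti-CTLA-4, Rspo3 had 0.906, 0.729, 2.25, 0.980 and 1.41 CPM in LDHA-KD tumours, against 14.1, 6.13, 11.0, 10.5 and 16.1 CPM in control tumours. The groups did not overlap, and the control tumours varied more than 2-fold among themselves with either antibody. The fall was 6.67-fold under IgG (adjusted p = 4.60e-06) and 9.17-fold under anti-CTLA-4, where the log2 fold change was -3.20 (SE 0.32, adjusted p = 4.13e-07). Summed over the 4 R-spondins, the level was 0.389 ± 0.0789 CPM per kb in LDHA-KD tumours with IgG (n = 5) and 2.34 ± 0.850 in the IgG controls (n = 4).

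The receptors for R-spondins moved apart from each other. Lgr4 was lower in LDHA-KD tumours, at -0.88 (SE 0.17, adjusted p = 4.91e-04) in the IgG comparison and -0.66 (SE 0.16, adjusted p = 0.00283) in the anti-CTLA-4 comparison, while Lgr6 was higher, at 0.63 (SE 0.08, adjusted p = 7.70e-06) and 0.64 (SE 0.08, adjusted p = 2.79e-06). Lgr6 averaged 78.1 CPM in LDHA-KD tumours with IgG and 50.4 CPM in the IgG controls, and made up 84.5% and 66.0% of the summed LGR level per kb. Lgr5, an intestinal stem cell marker, was low, at 0.212 to 1.33 CPM over the 19 samples. It had 0.86 (SE 0.34, adjusted p = 0.0539) in the anti-CTLA-4 comparison, and passed without anti-CTLA-4-treated LDHA-KD replicate 2 (adjusted p = 0.0315) or 5 (0.0412), without anti-CTLA-4 control replicate 3 (0.0321) and without control IgG replicate 1 (0.0313). Of the ligases, Rnf43 was higher at 0.80 (SE 0.16, adjusted p = 5.95e-04) in the IgG comparison and 0.65 (SE 0.15, adjusted p = 0.00170) in the anti-CTLA-4 comparison. Znrf3 had 0.04 (SE 0.12) and 0.16 (SE 0.12) and was not called.

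Of the 7 secreted inhibitors, Sfrp1 was higher in LDHA-KD tumours in both comparisons. Sfrp1 (chromosome 8, 23411502 to 23449632) had 52.0, 46.5, 63.2, 50.6 and 56.4 CPM in LDHA-KD tumours with IgG, against 12.5, 17.5, 17.4 and 20.9 CPM in the IgG controls. Under anti-CTLA-4, Sfrp1 had 57.6, 51.0, 88.7, 78.1 and 88.6 CPM in LDHA-KD tumours, against 13.5, 21.4, 15.5, 14.6 and 19.3 CPM in control tumours. Its lowest LDHA-KD value exceeded its highest control value with either antibody. For Sfrp1 the log2 fold change was 1.66 (SE 0.18, adjusted p = 1.67e-06) in the IgG comparison and 2.11 (SE 0.17, adjusted p = 3.34e-08) in the anti-CTLA-4 comparison.

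Wif1 (chromosome 10, 121033960 to 121100650), another secreted WNT-binding protein, had 1.21, 0.589, 0.520, 0.617 and 0.626 CPM in LDHA-KD tumours with IgG, against 0.317, 0.551, 0.352 and 0.741 CPM in the IgG controls. Under anti-CTLA-4, Wif1 had 0.953, 0.675, 1.58, 1.20 and 0.825 CPM in LDHA-KD tumours, against 0.323, 0.491, 0.389, 0.536 and 0.693 CPM in control tumours. The samples overlapped with either antibody, by 1 pair of samples with anti-CTLA-4. It was called under anti-CTLA-4 at 1.10 (SE 0.30, adjusted p = 0.00652) and not under IgG at 0.55 (SE 0.33, adjusted p = 0.212), with an interaction of 0.56 (SE 0.44, adjusted p = 1.0). The inhibitors Dkk2, Dkk3, Sfrp2, Sfrp4 and Notum, an enzyme that removes the lipid of WNTs, were not called in either comparison. Dkk2 and Dkk3, of the Dickkopf family, had -0.01 and -0.38 under IgG and -0.14 and 0.16 under anti-CTLA-4. Notum had -0.18 under IgG and 0.04 under anti-CTLA-4, and Sfrp4 -0.63 and 0.02. Sfrp2 had -0.69 (SE 0.47) and 0.02 (SE 0.44), and its SE was the widest of the members in both.

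The 4 feedback and target genes did not move together. Tnfrsf19 (chromosome 14, 60963875 to 61046490), a TNF receptor family member known as a beta-catenin target, had 12.5, 8.05, 14.4, 14.8 and 15.1 CPM in LDHA-KD tumours with IgG, against 1.51, 1.80, 1.51 and 3.31 CPM in the IgG controls. Under anti-CTLA-4, Tnfrsf19 had 16.1, 16.3, 7.64, 13.1 and 7.74 CPM in LDHA-KD tumours, against 0.823, 1.57, 1.01, 1.53 and 1.15 CPM in control tumours. No LDHA-KD sample overlapped a control sample, and the lowest with anti-CTLA-4 were replicates 3 and 5, which lay apart. The rise was 6.37-fold under IgG (adjusted p = 2.08e-06) and 9.96-fold under anti-CTLA-4, where the log2 fold change was 3.32 (SE 0.29, adjusted p = 7.55e-08).

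Axin2 (chromosome 11, 108920349 to 108950783), the target gene most used as a readout of beta-catenin signalling, had 2.21, 2.43, 2.66, 1.91 and 2.91 CPM in LDHA-KD tumours with IgG, against 2.38, 3.28, 3.70 and 2.68 CPM in the IgG controls. Under anti-CTLA-4, Axin2 had 2.05, 2.62, 4.51, 3.38 and 3.46 CPM in LDHA-KD tumours, against 2.00, 3.21, 2.41, 1.88 and 2.62 CPM in control tumours. The samples overlapped with either antibody. It was not called at -0.31 (SE 0.21, adjusted p = 0.282) under IgG or 0.40 (SE 0.20, adjusted p = 0.120) in the anti-CTLA-4 comparison, and it passed under anti-CTLA-4 without anti-CTLA-4-treated LDHA-KD replicate 1, at 0.53 (adjusted p = 0.0332).

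Lef1 (chromosome 3, 131110471 to 131224356), a transcription factor that partners beta-catenin and is also made by T cells, had 0.894, 1.51, 1.19, 1.20 and 1.36 CPM in LDHA-KD tumours with IgG, against 0.899, 1.19, 0.568 and 1.25 CPM in the IgG controls. Under anti-CTLA-4, Lef1 had 1.21, 1.62, 1.78, 2.08 and 1.44 CPM in LDHA-KD tumours, against 0.705, 0.819, 1.32, 0.724 and 0.874 CPM in control tumours. In the anti-CTLA-4 comparison a single control sample reached into the LDHA-KD range. Lef1 was called under anti-CTLA-4 at 0.87 (SE 0.23, adjusted p = 0.00526) and not under IgG at 0.34 (SE 0.24, adjusted p = 0.311), with an interaction of 0.53 (SE 0.33, adjusted p = 1.0). The 10 T cell markers, all called higher in both comparisons, summed to between 86.9 and 162 CPM in LDHA-KD tumours with anti-CTLA-4 and 66.7 to 104 CPM in LDHA-KD tumours with IgG, against 33.2 to 65.4 CPM in the anti-CTLA-4 controls and 16.5 to 35.1 CPM in the IgG controls. None of them was at 0 in all samples of any group, and their part in the Lef1 result was not tested. Over all genes tested, 16.8% were called higher under IgG and 20.2% under anti-CTLA-4. Nkd1 (chromosome 8, 88521354 to 88594884), a feedback inhibitor at the Dishevelled protein, had 0.447, 0.743, 0.397, 0.617 and 0.680 CPM in LDHA-KD tumours with IgG, against 0.450, 0.870, 0.892 and 1.23 CPM in the IgG controls. Under anti-CTLA-4, Nkd1 had 0.418, 0.594, 0.576, 0.662 and 0.665 CPM in LDHA-KD tumours, against 0.558, 1.26, 0.597, 0.563 and 0.392 CPM in control tumours. The samples overlapped, and it was not called at -0.57 (SE 0.32, adjusted p = 0.179) or -0.23 (SE 0.30, adjusted p = 0.572).

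Markers of other cells moved between the tumour lines as well. Over all genes tested, 34.3% were called under IgG and 40.0% under anti-CTLA-4. The 8 endothelial markers, all lower under IgG and 5 of them lower under anti-CTLA-4, summed to between 264 and 398 CPM in LDHA-KD tumours with anti-CTLA-4 and 226 to 291 CPM in LDHA-KD tumours with IgG, against 399 to 438 CPM in the anti-CTLA-4 controls and 376 to 474 CPM in the IgG controls. The 10 epithelial tumour cell markers summed to between 2178 and 3371 CPM in LDHA-KD tumours with anti-CTLA-4 and 3078 to 3427 CPM in LDHA-KD tumours with IgG, against 3830 to 4760 CPM in the anti-CTLA-4 controls and 3777 to 4947 CPM in the IgG controls. Of these, 4 were lower and 1 higher under IgG, and 6 lower and 1 higher under anti-CTLA-4. Their log2 fold changes ran from -2.80 to 1.38 under IgG and from -2.94 to 1.51 under anti-CTLA-4. The epithelial sums thus mix unlike changes and do not measure these cells as a type. The fibroblast markers overlapped, at 3392 to 7987 CPM and 3514 to 4415 CPM in LDHA-KD tumours with anti-CTLA-4 and IgG, against 3078 to 5916 CPM and 3675 to 5723 CPM in the anti-CTLA-4 and IgG controls, with 1 of the 10 higher and 5 lower under IgG, and 3 higher under anti-CTLA-4. The 7 keratinocyte and hair follicle markers, of which between 0 and 2 were at 0 in all samples of a group and 3 were tested, summed to between 4.15 and 13.6 CPM in LDHA-KD tumours with anti-CTLA-4 and 3.70 to 10.3 CPM in LDHA-KD tumours with IgG, against 16.2 to 33.5 CPM in the anti-CTLA-4 controls and 11.7 to 27.5 CPM in the IgG controls, with 2 lower under IgG, and 2 lower and 1 higher under anti-CTLA-4. Those lower were Trp63 and Krt10, and the 1 higher was Ivl, at 3.08. Trp63 held the most counts of the list in every sample, so the sums mostly follow that gene and do not measure these cells as a type. The 8 macrophage markers, 7 called higher under IgG and 8 under anti-CTLA-4, summed to between 3363 and 3845 CPM in LDHA-KD tumours with anti-CTLA-4 and 3317 to 3699 CPM in LDHA-KD tumours with IgG, against 1595 to 2048 CPM in the anti-CTLA-4 controls and 1330 to 2314 CPM in the IgG controls. The 6 mast cell markers, all called higher in both comparisons with a median log2 fold change of 2.26 under IgG and 1.70 under anti-CTLA-4, summed to between 309 and 617 CPM in LDHA-KD tumours with anti-CTLA-4 and 382 to 757 CPM in LDHA-KD tumours with IgG, against 90.7 to 150 CPM in the anti-CTLA-4 controls and 92.5 to 135 CPM in the IgG controls. Of the 8 pericyte and smooth muscle markers, 4 were lower under IgG and 3 under anti-CTLA-4, and none higher. They summed to between 134 and 286 CPM in LDHA-KD tumours with anti-CTLA-4 and 150 to 181 CPM in those with IgG. The anti-CTLA-4 controls had 234 to 338 CPM and the IgG controls 274 to 312 CPM. Acta2 held the most counts of the list in every sample, so these sums largely follow that gene. No marker of the endothelial, pericyte and smooth muscle, epithelial, fibroblast, macrophage or mast cell lists was at 0 in all samples of any group. The part of these cell types in the results for Wnt7a, Wnt10a, Wnt10b, Wnt11, Wnt5a, Rspo3, Sfrp1 and Tnfrsf19 was not tested.

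Outside the 45 members, 65 further genes of the pathway were listed, of which 52 passed the filter. Under IgG 4 were higher and 17 lower, and under anti-CTLA-4 6 were higher and 15 lower (40.4% called in each). Over all genes tested, 34.3% were called under IgG and 40.0% under anti-CTLA-4. Of the 14 genes of WNT secretion and the cytoplasmic core, Porcn, the enzyme that attaches the lipid to WNTs, had the largest change. It averaged 5.79 CPM in LDHA-KD tumours with IgG and 15.7 CPM in the IgG controls, which is -1.44 on the log2 scale (SE 0.14, adjusted p = 3.51e-07), and -1.56 (SE 0.13, adjusted p = 6.70e-08) in the anti-CTLA-4 comparison. Wls, the carrier that brings WNTs to the cell surface, was higher at 0.45 (SE 0.12) under IgG and 0.38 (SE 0.11) under anti-CTLA-4, and Csnk1a1, a kinase that marks beta-catenin for destruction, lower at -0.65 (SE 0.09) and -0.61 (SE 0.09).

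Of the 12 genes of planar polarity and alternative receptors, 7 were lower under IgG and 6 under anti-CTLA-4, and none higher. The share called was 58.3% under IgG and 50.0% under anti-CTLA-4. Over all genes tested, 17.5% were lower and 16.8% higher under IgG, and 19.8% lower and 20.2% higher under anti-CTLA-4. The list was not tested as a set. Vangl2, a core planar polarity protein, averaged 3.33 CPM in LDHA-KD tumours with IgG and 13.6 CPM in the IgG controls, which is -2.03 on the log2 scale (SE 0.16, adjusted p = 1.85e-08), and had -1.86 (SE 0.15, adjusted p = 3.10e-08) in the anti-CTLA-4 comparison. Celsr1, an adhesion receptor of the same system, had -1.37 (SE 0.21) under IgG and -0.75 (SE 0.19) under anti-CTLA-4. Ror2, a receptor of Wnt5a, had -1.24 (SE 0.19) under IgG and -0.55 (SE 0.18) under anti-CTLA-4. Prickle1, a cytoplasmic polarity protein, had -0.86 (SE 0.16) and -0.57 (SE 0.15).

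Among 10 nuclear partners of beta-catenin, 2 were higher and 1 lower under IgG, and 4 higher and 1 lower under anti-CTLA-4. That is 30.0% and 50.0% called, against 34.3% and 40.0% of all genes tested. Bcl9, a co-activator, was higher at 0.48 (SE 0.11) under IgG and 0.47 (SE 0.10) under anti-CTLA-4, and Pygo2, its partner, at 0.26 (SE 0.07) and 0.25 (SE 0.06). Tle3, a co-repressor, was higher under anti-CTLA-4 at 0.45 (SE 0.09), and Ctbp1, another, was lower at -0.24 (SE 0.07) under IgG and -0.31 (SE 0.07) under anti-CTLA-4. Of 13 further antagonists 8 were tested, and Frzb, a secreted WNT-binding protein, was lower in both comparisons, at -1.66 (SE 0.23) and -1.21 (SE 0.21). Dact3 and Dact1, which act on Dishevelled, were lower under IgG at -1.01 (SE 0.24) and -0.73 (SE 0.23). Of 10 other reported beta-catenin targets 8 were tested, of which Cd44 and Bmp4 were lower and Fosl1 higher in both (37.5% called in each). Cd44, an adhesion receptor, had -0.71 (SE 0.14) and -0.64 (SE 0.13), Bmp4, a growth factor, -0.84 (SE 0.30) and -1.11 (SE 0.28), and Fosl1, an AP-1 factor, 0.58 (SE 0.15) and 0.41 (SE 0.14). The 6 other WNT and Frizzled genes (Wnt1, Wnt3a, Wnt8a, Wnt8b, Wnt9b and Fzd10) did not pass the filter.

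The comparison of anti-CTLA-4 with IgG asks how each kind of tumour responded to the blockade. No member was called in LDHA-KD tumours (0% of all genes called), in control tumours (0%) or in the interaction (0%) with edgeR's quasi-likelihood test. At an unadjusted p under 0.05 with the same test there were 7 of the 38 members in LDHA-KD tumours, 7 in control tumours and 2 in the interaction. Over all 16763 genes tested, 1988, 1346 and 415 had such a p, in the same order. These shares were not compared by a test. With DESeq2, 50 genes were called in LDHA-KD tumours, among them Wnt4 and Fzd7, 11 genes but no member in control tumours, and 0 in the interaction. With limma voom 0 genes were called in each. The median log2 fold change of the members was 0.15 in LDHA-KD tumours and -0.05 in control tumours, against 0.00 for all genes in each.

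**Figure D4:**
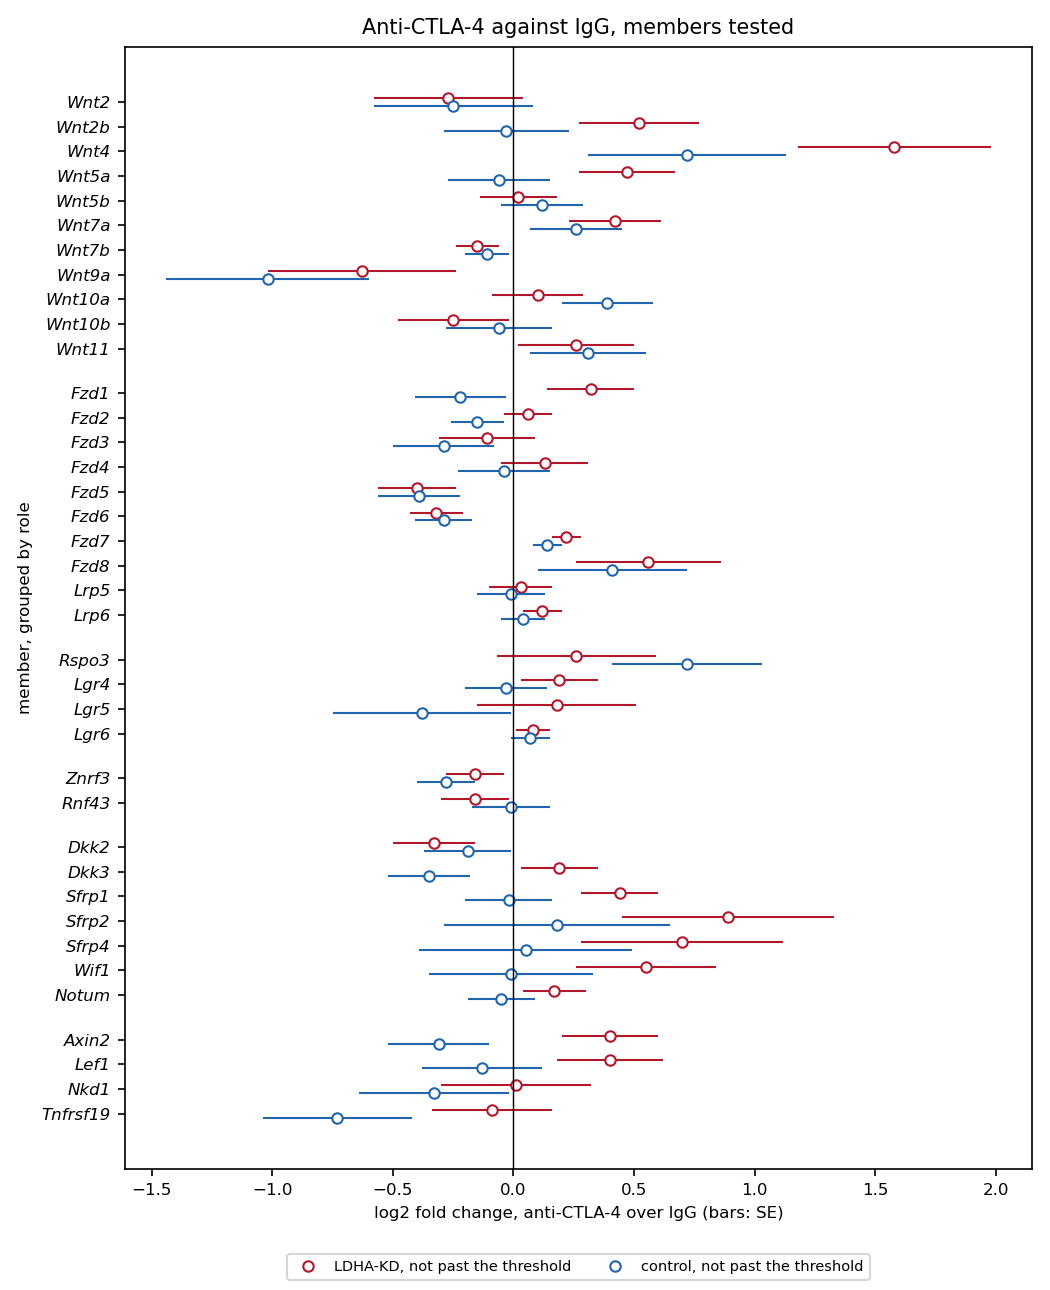
Log2 fold changes of anti-CTLA-4 over IgG for the 38 members tested, in LDHA-KD tumours (red) and control tumours (blue), with SE bars. All points are open because none passed an adjusted p of 0.05. Wnt4 in LDHA-KD tumours lies farthest from 0, at 1.58.

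Wnt4 (chromosome 4, 137277489 to 137299726) had 1.05, 0.972, 4.01, 1.69 and 2.77 CPM in LDHA-KD tumours with anti-CTLA-4, against 0.578, 0.487, 1.01, 0.833 and 0.599 CPM in LDHA-KD tumours with IgG. Control tumours had 1.12, 1.05, 2.00, 0.885 and 2.86 CPM with anti-CTLA-4, against 0.661, 1.16, 0.946 and 1.05 CPM with IgG. In both kinds of tumour the highest samples with anti-CTLA-4 were replicates 3 and 5, which are the 4 libraries that lay apart. The log2 fold change in LDHA-KD tumours was 1.58 (SE 0.40, adjusted p = 0.293 with edgeR, 0.0443 with DESeq2, and between 0.0614 and 1.0 over the other alternatives). It was 0.83 (adjusted p = 1.0) without the 4 libraries. In control tumours it was 0.72 (SE 0.41, adjusted p = 0.651).

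Fzd7 (chromosome 1, 59482424 to 59486955) had 40.7, 40.7, 44.7, 40.7 and 42.0 CPM in LDHA-KD tumours with anti-CTLA-4, against 33.8, 34.2, 36.4, 38.9 and 35.7 CPM in LDHA-KD tumours with IgG. The samples did not overlap, which held for 1.38% of all genes tested, in a difference of 0.22 on the log2 scale (SE 0.06, adjusted p = 0.293 with edgeR, 0.0480 with DESeq2). In control tumours it had 27.8, 25.7, 24.2, 25.9 and 26.9 CPM with anti-CTLA-4, against 24.9, 24.8, 21.9 and 22.9 CPM with IgG, which overlapped, at 0.14 (SE 0.06, adjusted p = 0.605). Fzd6 had lower values with anti-CTLA-4 in both kinds of tumour, 79.2 to 122 CPM in LDHA-KD tumours with anti-CTLA-4 against 112 to 128 CPM with IgG, and 76.9 to 111 CPM in the anti-CTLA-4 controls against 111 to 124 CPM with IgG. The samples overlapped in LDHA-KD tumours and did not in control tumours, where 1.27% of all genes did not. In control tumours this was a near tie. The nearest samples, replicate 4 with anti-CTLA-4 and replicate 1 with IgG, both had 111 CPM after rounding. The log2 fold changes of Fzd6 were -0.32 (SE 0.11, adjusted p = 0.316) and -0.29 (SE 0.12, adjusted p = 0.601). Rspo3 in control tumours had 0.72 (SE 0.31, adjusted p = 0.601) with anti-CTLA-4, and Wnt9a in control tumours -1.02 (SE 0.42, adjusted p = 0.601).

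**Figure D5:**
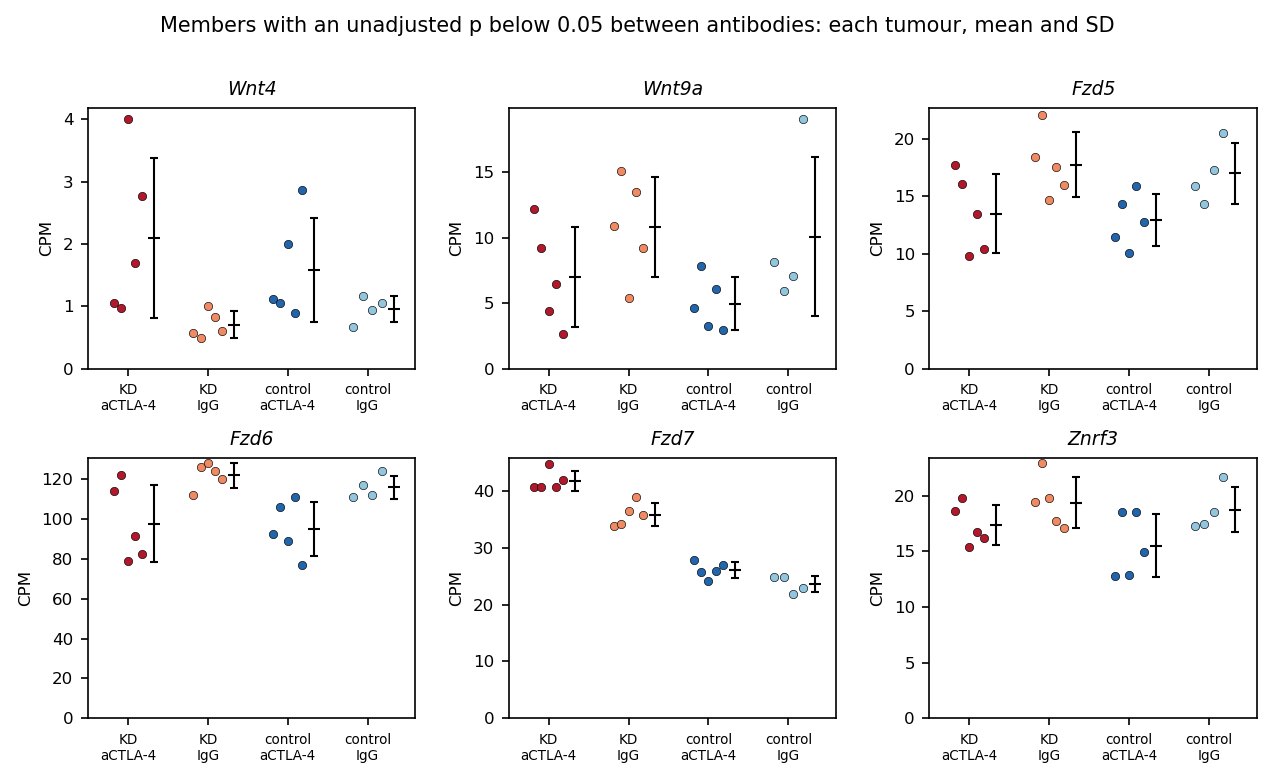
CPM in each tumour, with group mean and SD, for the 6 members with an unadjusted p under 0.05 in a comparison of antibodies that the plot of 12 members does not show. Wnt4 reaches 4.01 and Wnt9a falls to 2.63 in LDHA-KD tumours with anti-CTLA-4, and Fzd7 is the only panel in which LDHA-KD tumours with either antibody do not overlap.

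Members differed in how evenly they ran within a group. The coefficient of variation of the 38 members had a median of 24.6% in LDHA-KD tumours with anti-CTLA-4 and 15.7% in those with IgG, against 21.8% in the anti-CTLA-4 controls and 20.0% in the IgG controls. In LDHA-KD tumours with anti-CTLA-4, Sfrp2 was the most uneven of them at 77.5%, with 7.23, 5.32, 33.4, 11.4 and 15.1 CPM, followed by Wnt4 at 61.4%. Replicates 3 and 5 of that group were the highest of the 5 for 15 of the 38 members (Wnt2b, Wnt4, Wnt5a, Wnt10a, Wnt11, Fzd1, Fzd4, Fzd7, Fzd8, Rspo3, Lgr6, Dkk3, Sfrp1, Sfrp2 and Axin2). They were the lowest for 8 (Wnt7b, Wnt9a, Fzd3, Fzd5, Fzd6, Znrf3, Rnf43 and Tnfrsf19). These libraries were picked because they lay apart on the second principal component, which is drawn from all genes that passed the filter. The share of all genes with this pair highest or lowest was not counted, so the counts do not show a trait of the members. In those libraries the fibroblast markers summed to 7987 and 5449 CPM and the epithelial tumour cell markers to 2178 and 2342 CPM, against 3392 to 5307 CPM and 2786 to 3371 CPM in the other 3 libraries of the group. The part of these cells in the spread was not tested.

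The remaining 7 members, Wnt3, Wnt6, Wnt16, Fzd9, Rspo1, Rspo2 and Rspo4, did not pass the filter and were not tested. They had between 5 counts (Rspo2) and 125 counts (Fzd9) over all 19 samples.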

How the data were processed

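Polyadenylated RNA of frozen tumours was sequenced with a stranded TruSeq kit, per the labels' protocols. The authors deposited raw gene counts, made with HTSeq 0.5.3 on build mm10, and Picard 1.124 was also named, per the submitters' processing notes. The aligner, annotation release and strand setting are not given in the sources used here, so overlapping and antisense genes may hold reads of their neighbours. The HTSeq lines that name no gene were left out (26.2% to 28.7% of records). Floors cover counting error only, since PCR copies could not be told from separate molecules.

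The fit used edgeR 4.0.16 under R 4.3.3: filterByExpr on group, TMM factors, 1 coefficient per group over all 19 samples, the quasi-likelihood F test, and Benjamini-Hochberg adjustment over all 16763 genes with a threshold of 0.05. SE is the absolute log2 fold change divided by the square root of F. CPM per kilobase used exon lengths of GENCODE M21 on GRCm38, which matched 46488 of 46983 identifiers and all 45 members. The test was also run on simulated counts, with known changes in a small share of the genes and in 1 comparison. In these data 34.3% and 40.0% of genes were called between tumour lines, so that run does not bear on the scaling or the error rate here. Alternatives used DESeq2 1.42.0, limma 3.58.1, other scalings and filters, a replicate block and left-out libraries. No pair of libraries held identical counts over the well-counted genes. The lowest chi-square per gene was 6.28, and the lowest across groups was 10.8, for anti-CTLA-4 control replicate 2 and control IgG replicate 3. It was missing for anti-CTLA-4-treated LDHA-KD replicate 5 with IgG-treated LDHA-KD replicate 3 or control IgG replicate 5. It was also missing for control IgG replicates 4 and 5.

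Members, gene lists and the rule for named genes were chosen with earlier results of these data known. Every sample's value was printed for members called in a tumour line comparison with an absolute log2 fold change of at least 1 and for Axin2, Lef1, Nkd1 and Tnfrsf19. Of each other pathway list, up to 3 called genes with the largest change per comparison were named. Wnt4 and Fzd7 were added after their values were seen, because DESeq2 called them. Of the keratinocyte list, Flg was left out because several identifiers share the symbol. Fibroblast, endothelial, pericyte and smooth muscle, T cell, epithelial, keratinocyte, macrophage and mast cell lists are given in the report. The adipocyte list, of 6 genes, had 0 called under IgG and 1 lower under anti-CTLA-4. The skeletal muscle list, also of 6 genes, had 1 lower in each. Over all genes tested, 34.3% were called under IgG and 40.0% under anti-CTLA-4.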

Additional observations from a re-analysis of the deposited data

Results flagged for a closer look

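In 152 groups of 4 or 5 tumours (38 members in 4 groups), 12 had a sample whose gap to the nearest of the others was large for the group's range by Dixon's test, where chance gives about 1 in 20 groups (7.60).

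In LDHA-KD tumours with anti-CTLA-4, Fzd2 was low in replicate 2 (9.69 CPM, the others 11.8 to 12.4) and Fzd4 low in replicate 1 (4.65 CPM, the others 6.88 to 7.66). In LDHA-KD tumours with IgG, Fzd2 was high in replicate 2 (13.5 CPM, the others 10.2 to 11.0), Lgr5 high in replicate 3 (1.01 CPM, the others 0.564 to 0.605) and Wif1 high in replicate 1 (1.21 CPM, the others 0.520 to 0.626).

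In control tumours with anti-CTLA-4, Wnt2b was high in replicate 2 (4.54 CPM, the others 3.32 to 3.46), as was Nkd1 (1.26 CPM, the others 0.392 to 0.597). Replicate 3 of that group had a low value of Notum (17.8 CPM, the others 29.7 to 33.1) and a high value of Lef1 (1.32 CPM, the others 0.705 to 0.874). In control tumours with IgG, Wnt7b was high in replicate 4 (246 CPM, the others 202 to 208), and replicate 5 was high for Wnt9a (19.1 CPM, the others 5.95 to 8.15) and Tnfrsf19 (3.31 CPM, the others 1.51 to 1.80).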

How the results depend on the processing

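The comparisons of tumour lines kept their counts of members within 1.5 times under all 27 alternatives. Under IgG 5 members were higher and 10 lower (5 to 5 and 10 to 10 with single libraries left out), and all 15 were called under every alternative. Under anti-CTLA-4 it was 7 higher and 11 lower (7 to 8 and 9 to 11 with single libraries left out), and 15 of the 18 were called under every alternative, the others being Wnt5b, Fzd2 and Fzd4. With raw library totals, which moved the median of all genes to 0.10 under anti-CTLA-4, Fzd2 had -0.24 (adjusted p = 0.109). For anti-CTLA-4 against IgG in LDHA-KD tumours, DESeq2 called 2 members higher, against 0 with edgeR and 0 with single libraries left out. Counts in the other antibody comparison and in the interaction stayed at 0 under every alternative run. Nkd1 under anti-CTLA-4 ran from -0.36 to 0.14 with single libraries left out, turning positive without control anti-CTLA-4 replicate 2, and was not called either way. Deviations of same-numbered samples correlated by over 0.1 in 15 of 27 pairs (median 0.12), against 29 of 108 differently numbered pairs (median -0.04). Since not every pair did and no label says what a number shares, the numbers were not taken to pair the samples. With the replicate block, 15 members were called under IgG and 19 under anti-CTLA-4, Lgr5 being added (0.82, adjusted p = 0.0306). The fit to only the groups compared was not run for the interaction, which needs all 4. Depth limits Lgr5, Lef1, Nkd1 and Wif1, which had few counts per library.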

Other observations

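Among the members below the filter, Wnt6 was at 0.108 to 0.196 CPM in LDHA-KD tumours with anti-CTLA-4 and 0.0306 to 0.179 CPM in LDHA-KD tumours with IgG, against 0 to 0.151 CPM in the anti-CTLA-4 controls and 0.0290 to 0.108 CPM in the IgG controls. Rspo2 had 0 counts in all 10 LDHA-KD tumours and 5 counts in all over the control tumours. These levels are near the floor of 3 counts and were not tested.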
